A study of Mus musculus with 12 samples.

Results

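The genotype difference that colorectal tumors and their stroma had in common was measured over all 12 arrays of the series, 6 from each genotype. For each gene it was taken as the mean of 2 differences on the log2 scale, Stat3dm minus Stat3wt in captured tumor and Stat3dm minus Stat3wt in captured stroma, so that both tissues counted equally. A gene was represented by its brightest probe set with a single symbol, and 16635 of 22180 genes were bright enough to be tested. Of these, 47 genes (0.283%) passed and are described here, 14 higher (0.0842%) and 33 lower (0.198%) in Stat3dm, together with gene lists on the colon, its tumors and its immune cells.

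The 4 groups each held 3 samples. Stat3wt tumor and Stat3wt stroma came from wild-type mice, and Stat3dm tumor and Stat3dm stroma from mice in which Stat3 had been deleted conditionally in myeloid cells. All mice, wild type included, had been given azoxymethane, a carcinogen, and dextran sulfate sodium, an irritant that causes colitis, so every sample stems from a colitis-associated tumor and none from untreated colon. A sample pooled material from 2 tumors of 1 mouse. Tumor and stroma had been separated by laser-capture microdissection of paraffin sections, and the RNA, 50 ng a sample, was amplified with a kit for fixed tissue and hybridised to 1 Affymetrix array. The labels name neither the age of the mice nor the promoter behind the deletion, and they give no rule for choosing the captured areas.

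STAT3 is a transcription factor that cytokines such as interleukin-6, interleukin-10 and interleukin-22 activate. In macrophages and neutrophils it carries the anti-inflammatory signal of interleukin-10, and in gut epithelium it drives antibacterial lectins of the Reg3 family and repair after injury. Colon epithelium is renewed from crypt stem cells kept by Wnt signals, whose descendants mature into absorptive colonocytes, mucus-making goblet cells and hormone-making enteroendocrine cells. Colorectal tumors usually hold the Wnt pathway switched on, which raises a set of target genes that includes several feedback inhibitors of the pathway itself.

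Within a group, arrays correlated at 0.881 to 0.967, and 0 of 66 array pairs held identical values. Array medians lay between 4.20 and 4.43, while the standard deviation (SD) of an array's values ranged from 1.60 to 1.91, widest in Stat3wt tumor 3 and Stat3dm tumor 3. Stat3 had an averaged difference of -0.13 (95% confidence interval -0.62 to 0.36, adjusted p = 0.946, limma) and does not check the labels, since the deletion concerned myeloid cells and the position of its probes is not given. The capture separated the tissues in part. The summed signal (on the linear scale) of 8 epithelial markers was 4010 to 6380 in Stat3wt tumor and 3520 to 6230 in Stat3dm tumor. In stroma it was 2310 to 2670 in Stat3wt and 1440 to 4060 in Stat3dm, so the samples labelled stroma also held epithelial RNA. How far this RNA contributed to differences shared by the 2 tissues was not tested.

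The genes that passed had the same direction in both tissues. At an unadjusted p under 0.05 there were 1369 genes (8.23%), 585 higher (3.52%) and 784 lower (4.71%). Counts within the lists below stand beside these shares of all genes, and beside 0.0842% called higher and 0.198% called lower. The smallest adjusted p was 0.000279, that of Dkk2. In what follows, "differed by" gives Stat3dm minus Stat3wt averaged over the tissues on the log2 scale, and values listed by sample are log2 levels. All 47 called genes had the same sign in tumor and stroma, against 54.1% of all genes tested, which the averaging itself favours. The calls were made on these same values, which favours separate groups too, so the separation is no added evidence. In 45 of the 47 the 3 Stat3dm values lay entirely on one side of the 3 Stat3wt values in each tissue, and the exceptions were Ly6c2 and Reg3g. Among all genes, 286 (1.72%) were apart in this way, 102 higher (0.613%) and 184 lower (1.11%), and 33 (0.198%) were apart in opposite directions. Within stroma alone 1789 genes (10.8%) did not overlap, and within tumor alone 1583 (9.52%). Across all genes the stroma and tumor differences correlated at a Pearson r of 0.354 and a Spearman rho of 0.183, a description over genes that share the same arrays.

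**Figure D1:**
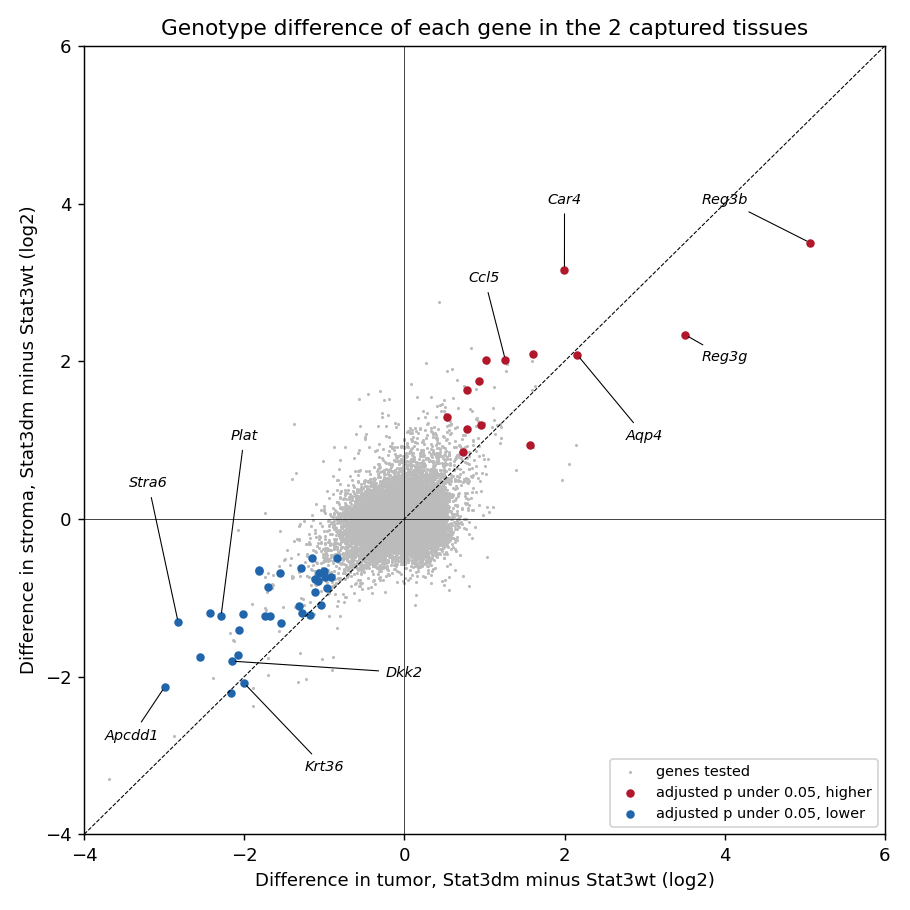
Each point is a gene, with its Stat3dm minus Stat3wt difference (log2) in tumor on the x axis and in stroma on the y axis; the dashed line marks equal differences. Red and blue points are the 14 genes higher and 33 genes lower with an adjusted p under 0.05 in the averaged difference, and they lie in the upper right and lower left quadrants.

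Taken alone, each tissue gave few calls. Stroma gave 0 genes in limma (844 at an unadjusted p under 0.05, 5.07%), and tumor gave 3 (1042 at an unadjusted p under 0.05, 6.26%). These were Dkk2, Stra6 and Plat, all of which also passed in the average. The test of the difference between the tissues called 0 genes in limma (401 at an unadjusted p under 0.05, 2.41%). Of the 33 lower genes 29 had the larger fall in tumor, against 59.4% of all genes below 0 in the average, and of the 14 higher genes 10 had the larger rise in stroma, against 45% of all genes above 0. With the replicate number as a block, tumor gave 89 calls and the average 292. Such a block links same-numbered samples of the 2 genotypes, a link that the labels do not state.

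The labels do not say whether tumor and stroma of one number come from the same mouse. If they do, the 6 arrays a side are 3 mice and the p-values above are too small. With genotype and number as a random block 13 genes passed, of which Aqp4 and Ccl5 were higher. The 11 lower were Dkk2, Apcdd1, Stra6, Krt36, Plat, Tenm4, Muc6, Ctxn1, Lama5, Svopl and Adcy1. With 1 mean per genotype and number 6 genes passed. Those 6 were Dkk2, Stra6, Plat and Muc6, lower, and Car4 and Dmbt1, higher. Single arrays also decided many calls. Leaving out 1 array gave 16 genes without Stat3dm stroma 3, 17 without Stat3wt stroma 2, 21 without Stat3wt tumor 3 and 21 without Stat3dm stroma 1. It gave 23 without Stat3wt tumor 2, 25 without Stat3wt stroma 3, 25 without Stat3dm tumor 1 and 28 without Stat3dm tumor 2. The count was 39 without Stat3dm stroma 2 and 40 without Stat3wt tumor 1. It rose to 53 without Stat3dm tumor 3 and 69 without Stat3wt stroma 1. In all 12 such fits 13 genes passed, 3 higher (Aqp4, Car4 and Ccl5) and 10 lower (Dkk2, Apcdd1, Stra6, Muc6, Plat, Krt36, Lama5, Tenm4, Svopl and Adcy1). The share of higher genes among the calls was 29.8%, and it moved both ways. It was 13% without Stat3wt tumor 2, 14.3% without the 2 arrays of widest spread and 23.5% with median centring. It was 38.9% after quantile normalization, 41% with the spread of an array as a covariate (68 higher, 98 lower), 43.7% with array weights and 46.2% without Stat3dm stroma 2.

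**Figure D2:**
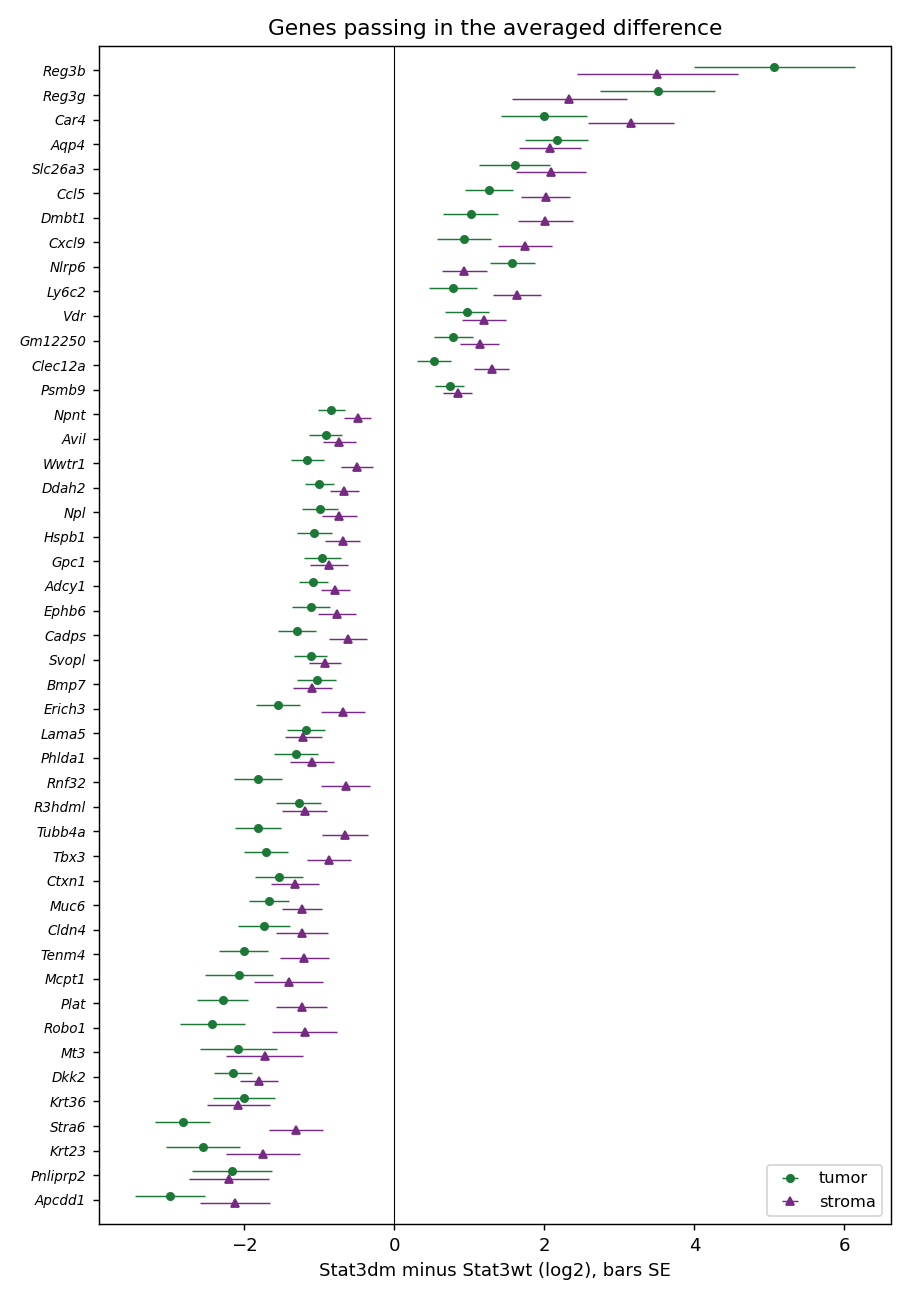
The Stat3dm minus Stat3wt difference (log2, x axis) of each of the 47 called genes, in tumor (circles) and stroma (triangles), with bars of 1 standard error from the fit. Every gene has both points on the same side of 0, from Reg3b at the top, with 5.07 in tumor and 3.50 in stroma, to Apcdd1 at the bottom, with -3.00 and -2.13.

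The smallest p and the largest fall both belonged to inhibitors of the Wnt pathway. Dkk2 and Apcdd1, the one secreted and the other bound to the membrane, fell in the average, and Dkk2 also passed in tumor alone. Dkk2, which binds the LRP coreceptors of Wnt, read 6.79, 6.79 and 7.09 in Stat3wt tumor and 4.43, 4.95 and 4.83 in Stat3dm tumor. In stroma it read 5.31, 6.03 and 6.02 in Stat3wt and 4.23, 4.14 and 3.58 in Stat3dm. The genotypes did not overlap in either tissue, and the lowest Stat3wt array stood above the highest Stat3dm array by more than the spread within a group. On average Dkk2 differed by -1.98 ± 0.18 (SE, 6 arrays a side), 3.95-fold lower (adjusted p = 0.000279, limma).

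Apcdd1, a membrane protein that holds back Wnt receptors, showed the largest averaged fall. Its values in tumor were 9.47, 9.50 and 9.42 in Stat3wt against 5.22, 6.87 and 7.31 in Stat3dm. In stroma they were 7.27, 8.57 and 7.30 against 5.09, 5.44 and 6.20. Again the genotypes were apart in both tissues, and Stat3dm tumor 1 was the lowest of the tumor samples. Averaged over tissues, the difference was -2.56 ± 0.33 (SE), 5.91-fold lower (adjusted p = 0.00648, limma).

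Of 25 tested genes in the list of stem cell genes and Wnt targets, 19 lay below 0 and 6 above, with a median of -0.70, against -0.0109 for all genes. Dkk2 and Apcdd1 were the members called, and 18 had an unadjusted p under 0.05, all of them lower. The genotypes did not overlap in either tissue for 9 members, all lower, against 1.11% of all genes. This list, like every list described here, was chosen with earlier results of these data known, so such shares are no independent evidence. Tnfrsf19, a receptor of the TNF family and Wnt target, was next in the list by p, at -0.90 (adjusted p = 0.0502). Of members chosen after their values were seen, the Wnt feedback inhibitors Nkd1, Notum and Axin2 had averaged differences of -2.13, -2.02 and -1.24, with adjusted p of 0.0828, 0.0828 and 0.0913. Nkd1 and Notum were lowest in Stat3dm stroma 1, at 3.27 and 3.98, while the other two Stat3dm stroma samples read 5.94 and 5.51 for Nkd1 and 5.74 and 5.94 for Notum. The list's median was -0.88 to -0.52 over all alternatives. In bulk material such as this, fewer cells of a type and less RNA per cell cannot be told apart.

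The ligands, receptors and R-spondins that set the pathway off formed a list of their own. Of 27 tested, 17 lay below 0 and 10 above, the median was -0.0881 (-0.0112 without Stat3dm tumor 3) and 0 were called in limma, with 2 higher and 4 lower at an unadjusted p under 0.05. The lowest p belonged to the ligand Wnt10a, at -0.80 (adjusted p = 0.124), and the receptor Fzd6, at -0.69 (adjusted p = 0.17). Of 31 cell cycle genes 22 lay below 0 and 9 above, with a median of -0.0237 (from -0.14 to 0.0394 when 1 Stat3dm tumor array was left out). In limma 0 of them reached an unadjusted p under 0.05 or were called. The summed epithelial signal given above overlapped between the genotypes in both tissues, and the list of 20 epithelial genes had a median of 0.0858, with 12 above 0. That median was -0.0777 without Stat3dm stroma 1 and 0.28 without Stat3dm stroma 2.

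**Figure D3:**
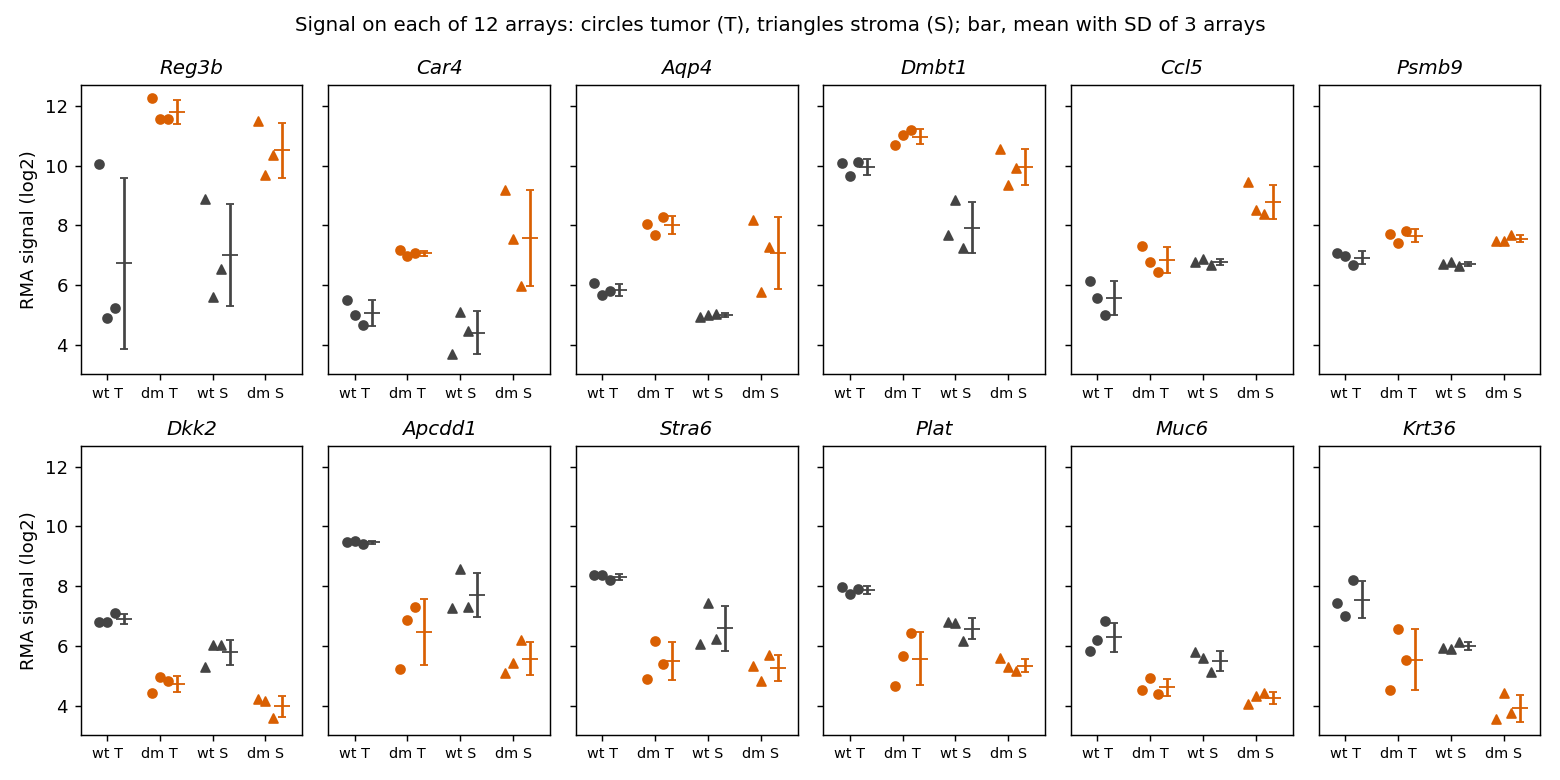
RMA signal (log2, y axis) of 12 called genes on each of the 12 arrays, grouped as Stat3wt (wt) and Stat3dm (dm) tumor (T, circles) and stroma (S, triangles), with the mean and SD of 3 arrays beside the points. The top row holds genes that rose, among them Reg3b with its 2 high Stat3wt values of 10.04 and 8.89, and the bottom row genes that fell, in which no Stat3dm point reaches the Stat3wt points of the same tissue.

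Stra6, Muc6 and Plat also fell, and these calls passed in all 25 alternatives. Stra6, the cell-surface receptor that takes up retinol from its carrier protein, read 8.37, 8.38 and 8.20 in Stat3wt tumor and 4.90, 6.17 and 5.40 in Stat3dm tumor. Stroma values were 6.08, 7.44 and 6.23 against 5.33, 4.81 and 5.68. The groups were apart in both tissues, by a wide gap in tumor and a narrow one in stroma. On average Stra6 differed by -2.07 ± 0.26 (SE), 4.20-fold lower (adjusted p = 0.00648, limma). The fall in stroma was smaller than that in tumor by 1.51 on the log2 scale (95% confidence interval 0.41 to 2.62), at an unadjusted p of 0.0107 and an adjusted p of 0.995. In the list of xenobiotic and retinoid metabolism Stra6 was the 1 member called of 26, against 0.198% of all genes called lower. Of these 26 members 17 lay above 0. The retinol dehydrogenase Rdh10 had a difference of -0.92 (adjusted p = 0.112) and Cyp2d34 one of 1.07 (adjusted p = 0.112).

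Muc6, a gel-forming mucin best known from gastric glands, was expressed at 5.84, 6.20 and 6.82 in Stat3wt tumor and 4.51, 4.93 and 4.40 in Stat3dm tumor. Stroma values were 5.78, 5.60 and 5.12 against 4.05, 4.32 and 4.43. Levels in Stat3dm were low and close together in both tissues, and the genotypes did not overlap. Over both tissues the difference was -1.46 ± 0.19 (SE), 2.74-fold lower (adjusted p = 0.00648, limma).

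Plat encodes tissue-type plasminogen activator, which turns plasminogen into the protease plasmin. In tumor it read 7.98, 7.74 and 7.89 in Stat3wt and 4.65, 5.65 and 6.42 in Stat3dm. In stroma it read 6.81, 6.76 and 6.16 against 5.59, 5.29 and 5.15. The Stat3wt tumor samples were nearly level while the Stat3dm tumor samples were spread out below them. On average Plat differed by -1.76 ± 0.24 (SE), 3.40-fold lower (adjusted p = 0.00948, limma). Plat was the 1 member called of 18 matrix proteases and plasminogen genes, of which 13 lay below 0 (median -0.40, and -0.18 without Stat3dm stroma 3). Next by p was the matrix protease Mmp7, also a Paneth cell gene, at -1.32 (adjusted p = 0.0957).

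The keratins Krt36 and Krt23 and the junction gene Cldn4 fell as well. Krt36, a hair-type keratin, read 7.45, 7.0 and 8.20 in Stat3wt tumor and 4.54, 6.56 and 5.53 in Stat3dm tumor, with 5.94, 5.88 and 6.14 against 3.57, 4.41 and 3.74 in stroma. The stroma groups were far apart and the tumor groups narrowly so, and the averaged difference was -2.04 ± 0.29 (SE), 4.12-fold lower (adjusted p = 0.0107, limma). Krt23, another type I keratin, had a difference of -2.15 (adjusted p = 0.0204), which did not pass without Stat3wt stroma 2 or Stat3dm stroma 1 (adjusted p up to 0.0743). Of its 6 Stat3dm values 3 lay under the limit of 3.65 used to leave out dim genes. The tight junction protein Cldn4 fell by 1.49 on the log2 scale (adjusted p = 0.0241) and was the 1 member of the epithelial list that was called. Its call was lost without Stat3wt tumor 2, Stat3wt stroma 2, Stat3dm tumor 1 or Stat3dm stroma 3 (adjusted p up to 0.0769). Krt18, a keratin of simple epithelia, and Krt14, one of squamous epithelia, differed by -0.97 and -0.95 (adjusted p = 0.0526 and 0.0501).

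Lama5, Npnt, Gpc1 and Bmp7 were also called lower, of which Lama5 alone passed in all 12 fits that left out 1 array. Lama5, a laminin chain of epithelial basement membranes, read 7.88, 7.84 and 7.96 in Stat3wt tumor and 6.12, 6.94 and 7.07 in Stat3dm tumor. The stroma arrays read 7.14, 7.57 and 7.57 against 5.91, 6.40 and 6.32. The groups did not overlap, and the difference was -1.18 in tumor and -1.22 in stroma (adjusted p of the average = 0.011, limma). Npnt, a basement membrane ligand of integrins, and Gpc1, a heparan sulfate proteoglycan, fell by 0.67 and 0.92 on the log2 scale (adjusted p = 0.0462 for each). Neither call held in any of the 12 fits that left out 1 array. The list of collagen and matrix genes had 22 of 27 members below 0 and a median of -0.27 (-0.11 in the fit that left out Stat3wt stroma 3), and 0 were called in limma, with 5 lower and 0 higher at an unadjusted p under 0.05. The other laminin chain Lamb1 differed by -0.83 (adjusted p = 0.192). The summed signal of 8 fibroblast markers was 1750 to 2620 in Stat3wt tumor and 1920 to 2210 in Stat3dm tumor, and 2880 to 5790 against 2620 to 5040 in stroma, so the genotypes overlapped.

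Bmp7, a ligand of the bone morphogenetic protein family, read 7.07, 7.31 and 7.61 in Stat3wt tumor and 5.64, 6.54 and 6.70 in Stat3dm tumor. In stroma it read 7.02, 7.21 and 7.09 against 5.87, 6.17 and 6.02. Each Stat3dm sample lay below each Stat3wt sample of its tissue, by 1.04 on average in tumor and 1.09 in stroma, 2.09-fold lower in the average (adjusted p = 0.0254, limma). The call passed in 6 of the 12 fits that left out 1 array, with an adjusted p of up to 0.095. It was the 1 member called of 22 genes of the TGF-beta and BMP pathways, of which 19 lay below 0 (median -0.25, and -0.15 without Stat3wt stroma 3). The BMP target Id3 differed by -0.88 (adjusted p = 0.146) and the ligand Bmp5 by -0.88 (adjusted p = 0.177).

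Receptors, transcription regulators and others completed the falls. The SLIT receptor Robo1 fell by 1.81, the teneurin Tenm4 by 1.61 and the Eph receptor Ephb6 by 0.94 on the log2 scale (adjusted p = 0.0254, 0.0107 and 0.0438). Tenm4 passed in all 12 fits without 1 array, Robo1 in 6 and Ephb6 in 3. Tbx3, a transcription factor, fell by 1.29 (adjusted p = 0.0204), a call lost without Stat3dm stroma 3 (adjusted p = 0.0683). Wwtr1, the transcriptional coactivator also called TAZ, fell by 0.83 (adjusted p = 0.0424), and Phlda1 by 1.21 (adjusted p = 0.026), passing in 3 and 5 of the 12 such fits. Among stress and metabolic genes, the metallothionein Mt3 fell by 1.91, the lipase-related Pnliprp2 by 2.19, the heat shock protein Hspb1 by 0.88 and Ddah2, of the methylarginine-degrading family, by 0.83 (adjusted p between 0.0254 and 0.0443). Without 1 array Mt3 passed in 3, Pnliprp2 in 5, Hspb1 in 2 and Ddah2 in 6 of the 12 fits. The adenylate cyclase Adcy1 fell by 0.94 and the transporter-like Svopl by 1.02 (adjusted p = 0.011 for both), and both passed in all 12. The remaining falls were Ctxn1, Tubb4a, R3hdml, Rnf32, Erich3, Cadps, Npl and Avil, between -1.43 for Ctxn1 and -0.83 for Avil. Ctxn1 passed in 10 of the 12 fits, R3hdml in 7, Rnf32 in 5, Tubb4a in 4, Erich3, Cadps and Npl in 2 each and Avil in 1. In the test between tissues Tubb4a, Rnf32 and Plat had an unadjusted p of 0.018, 0.0217 and 0.0457 (adjusted p = 0.995), with larger falls in tumor.

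The rises were led by antibacterial proteins of the gut surface. Reg3b and Reg3g are secreted C-type lectins of epithelial cells that act against bacteria and are known targets of STAT3 in that layer. Reg3b read 10.04, 4.91 and 5.23 in Stat3wt tumor and 12.26, 11.57 and 11.55 in Stat3dm tumor. Stroma gave 8.89, 5.60 and 6.53 against 11.48, 9.68 and 10.37. Replicate 1 of Stat3wt was high in both tissues, yet below every Stat3dm sample of its tissue. On average Reg3b differed by 4.29 ± 0.76 (SE), 19.5-fold higher (adjusted p = 0.0307, limma). It passed in 4 of the 12 fits that left out 1 array, with an adjusted p of up to 0.114 and a difference between 3.83 and 5.11.

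Reg3g read 9.55, 6.99 and 6.57 in Stat3wt tumor and 11.75, 10.88 and 11.01 in Stat3dm tumor, and 8.61, 6.67 and 5.95 against 10.41, 8.09 and 9.73 in stroma. Stat3wt replicate 1 was again the highest of its group, and in stroma it exceeded Stat3dm replicate 2, so the stroma groups overlapped. The averaged difference was 2.92 ± 0.55 (SE), 7.58-fold higher (adjusted p = 0.0427, limma), and it passed in 3 of the 12 fits without 1 array (adjusted p up to 0.142). In the list of STAT3 targets and acute phase genes these were the 2 members called of 19, against 0.0842% of all genes called higher. The list had 12 members above 0 and 7 below, with a median of 0.0687 (0.00467 without Stat3dm stroma 1), and Lrg1, next by p, differed by 1.23 (adjusted p = 0.162).

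Dmbt1, a secreted scavenger receptor that binds bacteria, read 10.08, 9.64 and 10.11 in Stat3wt tumor against 10.69, 11.01 and 11.18 in Stat3dm tumor. In stroma it read 7.69, 8.86 and 7.23 against 10.56, 9.36 and 9.91. The genotypes did not overlap, and the difference between the group means was larger in stroma, where Stat3wt was low. Over both tissues the difference was 1.51 ± 0.26 (SE), 2.86-fold higher (adjusted p = 0.0262, limma), and it passed in 6 of the 12 fits without 1 array. Nlrp6, a sensor of microbial products in gut epithelium, read 4.68, 4.66 and 5.05 against 6.18, 5.96 and 6.98 in tumor, and 4.63, 4.69 and 4.81 against 6.32, 5.23 and 5.37 in stroma. Its Stat3wt values were even and all lay below Stat3dm, with an averaged difference of 1.25 (adjusted p = 0.0254), passing in 7 of the 12 fits without 1 array.

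The list of antimicrobial and Paneth-like genes to which these belong split in 2 directions. Of 18 tested members 10 lay above 0 and 8 below, with 4 called higher (Reg3b, Reg3g, Dmbt1 and Nlrp6) and 1 lower (Muc6). Of all genes 0.0842% were called higher and 0.198% lower. The median was 0.49. The 3 Paneth cell markers all lay below 0, with a median of -1.19, and their summed signal was 2210 to 7600 in Stat3wt tumor, 445 to 4290 in Stat3dm tumor, 456 to 3230 in Stat3wt stroma and 588 to 1250 in Stat3dm stroma. None of the 3 was called in limma, and 1 had an unadjusted p under 0.05.

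Promoter sequences are shown for Reg3b and Reg3g, which rose together, and for Gm12250, chosen among the interferon-related rises because its window held matches. The windows of Cxcl9 and Psmb9 held none of the motifs and are not shown. The 250 bases before the start are from RefSeq on GRCm38.p6 and are written in the gene's direction. Capitals mark matches, on either strand, to the gamma-activated site TTCNNNGAA to which STAT proteins bind, the interferon-stimulated response element (GAAA, any 2 bases and GAAA again) and the TCF/LEF motif CTTTGAT of Wnt-responsive genes. Reg3b lies on the plus strand at chr6:78370635-78370884, with a gamma-activated site 129 bases before the start. Reg3g lies on the minus strand at chr6:78468875-78469124, with a TCF/LEF match 54 bases before the start. Gm12250 lies on the plus strand at chr11:58183593-58183842, with a gamma-activated site 61 bases before the start between response elements at 91 and 46 bases.
Reg3b: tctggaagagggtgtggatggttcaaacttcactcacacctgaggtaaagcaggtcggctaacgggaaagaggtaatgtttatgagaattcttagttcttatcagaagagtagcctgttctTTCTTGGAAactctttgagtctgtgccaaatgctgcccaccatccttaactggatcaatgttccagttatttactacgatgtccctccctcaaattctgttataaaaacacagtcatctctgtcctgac
Reg3g: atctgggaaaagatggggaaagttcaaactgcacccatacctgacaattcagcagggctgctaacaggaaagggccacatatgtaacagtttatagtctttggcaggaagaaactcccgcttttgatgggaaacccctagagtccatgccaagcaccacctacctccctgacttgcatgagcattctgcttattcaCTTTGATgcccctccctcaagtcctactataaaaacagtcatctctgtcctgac
Gm12250: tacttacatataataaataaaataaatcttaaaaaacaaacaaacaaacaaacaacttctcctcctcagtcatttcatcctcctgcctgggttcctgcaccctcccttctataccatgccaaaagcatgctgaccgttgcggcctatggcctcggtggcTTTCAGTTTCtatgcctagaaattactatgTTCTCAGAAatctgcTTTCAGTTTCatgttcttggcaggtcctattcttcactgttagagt

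The share of called genes with a match was set beside that of all genes. Windows reached from 250 bases before to 50 after the start, and 38 of the 47 called genes had one. The gamma-activated site was in 3 of them (7.89%: Reg3b, Gm12250 and Ddah2), against 9.55% of 27025 genes. The interferon-stimulated element was in 2 (5.26%: Gm12250 and Tenm4), against 3.99%. The TCF/LEF motif was in 3 (7.89%: Reg3g, Stra6 and Wwtr1), against 4.29%, and no match to it stood in the window of Dkk2. A match describes letters only and says nothing of binding in these samples.

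Of the genes of mature colonocytes, 3 rose. Car4, a membrane carbonic anhydrase of absorptive colonocytes, read 5.51, 5.01 and 4.66 in Stat3wt tumor and 7.16, 6.97 and 7.06 in Stat3dm tumor. Its stroma values were 3.68, 5.09 and 4.47 against 9.19, 7.55 and 5.98. The Stat3dm tumor samples were level, while Stat3dm stroma ran from a value near the Stat3wt tumor range to the highest of all 12 arrays. On average Car4 differed by 2.58 ± 0.40 (SE), 5.97-fold higher (adjusted p = 0.0184, limma). Aqp4, a water channel, read 6.06, 5.67 and 5.80 against 8.04, 7.69 and 8.29 in tumor. In stroma it read 4.93, 5.0 and 5.05 against 8.17, 5.78 and 7.26. Stat3wt was even in both tissues and lay below Stat3dm throughout. On average Aqp4 differed by 2.12 ± 0.29 (SE), 4.35-fold higher (adjusted p = 0.00948, limma).

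Slc26a3, the chloride and bicarbonate exchanger of the colon surface, read 3.97, 3.81 and 3.69 against 5.33, 5.02 and 5.92 in tumor, and 3.98, 3.49 and 3.52 against 7.21, 5.50 and 4.54 in stroma. The Stat3wt values lay close to the limit of 3.65 used to leave out dim genes, and 2 of the 6 were under it. The averaged difference was 1.84 ± 0.33 (SE, adjusted p = 0.0364, limma). With Stat3wt values under the limit raised to it, the point estimate was 3.47-fold higher in Stat3dm, which is no lower bound. It passed in 3 of the 12 fits without 1 array. The vitamin D receptor Vdr differed by 1.08 (adjusted p = 0.0462), passing in 2 of the 12 such fits.

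Of 28 tested colonocyte genes 23 lay above 0 and 5 below, with a median of 0.70, 1.00 in stroma and 0.41 in tumor, and 3 were called (Car4, Aqp4 and Slc26a3). An unadjusted p under 0.05 was reached by 15 higher and 1 lower, against 3.52% and 4.71% of all genes, of which 0.0842% were called higher. This list and the goblet and enteroendocrine lists were chosen with earlier results known too, so their shares are no independent evidence. Among members chosen after their values were seen, the short-chain fatty acid carrier Slc5a8 differed by 1.66 (adjusted p = 0.0779) and the membrane mucin Muc3 differed by 1.51 (adjusted p = 0.0502). The list median was 0.39 with weighted arrays and 0.44 without Stat3dm stroma 1, and its highest value over the alternatives was 0.80. Of 19 goblet cell genes 16 lay above 0 (median 0.47), and 0 were called in limma, with 10 higher and 1 lower at an unadjusted p under 0.05. Zg16, a goblet lectin, differed by 1.59 (adjusted p = 0.0502), with 2.75 in stroma and 0.44 in tumor. The antimicrobial ribonuclease Ang4, in the same list, differed by -1.63 (adjusted p = 0.123).

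All 12 enteroendocrine genes lay above 0, against 47.4% of all genes, with a median of 0.29 and 0 called in limma, 5 of them higher at an unadjusted p under 0.05. The hormone gene Pyy differed by 1.80 (adjusted p = 0.0898) and the granule protein Chgb 1.11 (adjusted p = 0.213). The summed signal of 5 goblet markers was 3110 to 4250 in Stat3wt and 3130 to 6030 in Stat3dm tumor, and 835 to 1640 against 2120 to 5620 in stroma. The 4 enteroendocrine markers summed to 165 to 238 against 354 to 619 in tumor and 112 to 223 against 273 to 485 in stroma, apart in both. How far the amount of mature epithelium in the captured areas contributed to the rises was not tested.

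**Figure D4:**
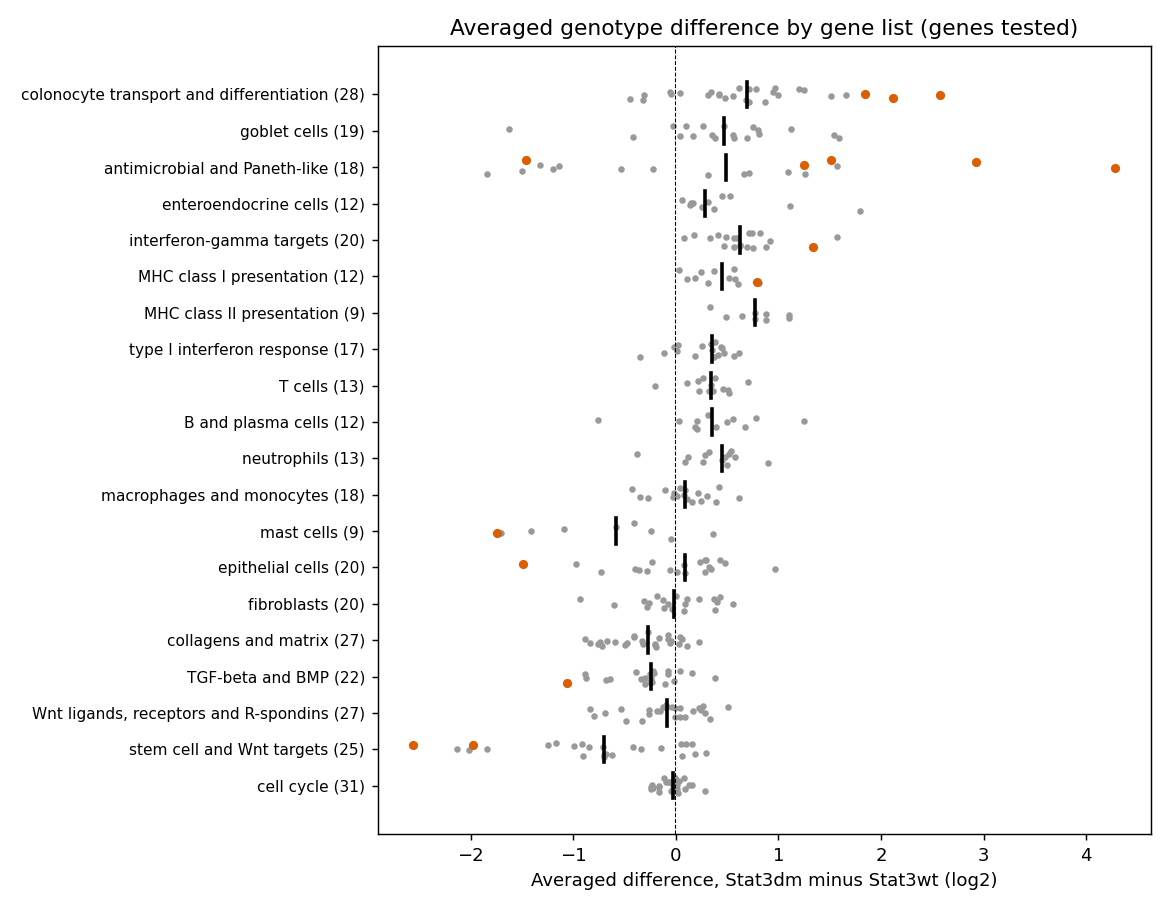
Averaged difference (log2, x axis) of each tested member of 20 gene lists, with the number tested in brackets; orange points are members with an adjusted p under 0.05 over all genes, and the black bar is the list's median (dashed line, median of all genes). The colonocyte, interferon-gamma and MHC lists lie mostly to the right of 0 and the list of stem cell and Wnt targets to the left, with medians of 0.70, 0.63, 0.45 (class I), 0.77 (class II) and -0.70.

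The other rises were chemokines, antigen processing genes and leukocyte surface genes. Ccl5, a chemokine that attracts T cells and monocytes, read 6.15, 5.57 and 5.01 in Stat3wt tumor and 7.30, 6.78 and 6.44 in Stat3dm tumor. Values in stroma were 6.77, 6.87 and 6.67 against 9.44, 8.52 and 8.39. All Stat3dm stroma samples stood well above the 3 level Stat3wt stroma samples, and the tumor groups were apart by less. On average Ccl5 differed by 1.64 ± 0.23 (SE), 3.11-fold higher (adjusted p = 0.00948, limma). Cxcl9, an interferon-gamma-induced chemokine that attracts activated T cells, read 7.70, 7.08 and 6.53 against 8.44, 7.79 and 7.89 in tumor, and 7.75, 6.78 and 6.24 against 8.95, 8.36 and 8.70 in stroma. Its groups did not overlap, with Stat3wt replicate 1 the nearest to Stat3dm in both tissues. The averaged difference was 1.34 ± 0.26 (SE), 2.53-fold higher (adjusted p = 0.0443, limma), passing in 2 of the 12 fits without 1 array. Of 20 chemokine genes 16 lay above 0, with Ccl5 the 1 called in that list, and Cxcl14, a chemokine of epithelium and fibroblasts, differed by -1.15 (adjusted p = 0.112).

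Psmb9, an interferon-inducible subunit of the immunoproteasome that cuts peptides for MHC class I, read 7.09, 6.98 and 6.67 in Stat3wt tumor and 7.72, 7.41 and 7.82 in Stat3dm tumor. Stroma read 6.70, 6.79 and 6.63 against 7.49, 7.48 and 7.68. The rise was small, nearly the same in the tissues and without overlap, 0.79 ± 0.13 (SE) in the average, 1.73-fold higher (adjusted p = 0.0254, limma), and it passed in 5 of the 12 fits without 1 array. Gm12250, an immunity-related GTPase that the naming rule passed over as a predicted gene, was higher by 0.96 (adjusted p = 0.0462), passing in 1 of the 12 such fits.

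All 20 tested interferon-gamma targets lay above 0, against 47.4% of all genes, with a median of 0.63. Cxcl9 was the 1 member called, and 14 reached an unadjusted p under 0.05, all higher. In 6 of the 20 the genotypes did not overlap in either tissue, all higher, against 0.613% of all genes. Like all the lists, this one and the MHC lists were chosen with earlier results known, so their shares are no independent evidence. Gbp5, a guanylate-binding protein of interferon defence, differed by 0.92 (adjusted p = 0.071), and Ciita, the master activator of MHC class II, 0.75 (adjusted p = 0.0898). The median was 0.43 to 0.73 over all alternatives.

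All 12 MHC class I presentation genes lay above 0 as well, with a median of 0.45 and Psmb9 the 1 called. In 7 of them the genotypes did not overlap in both tissues, all higher, against 0.613% of all genes. The peptide transporters Tap1 and Tap2 differed by 0.81 and 0.56 (adjusted p = 0.0898 for each). All 9 MHC class II genes lay above 0, with a median of 0.77 (1.02 in stroma, 0.57 in tumor) and 0 called in limma, 7 of them higher at an unadjusted p under 0.05. H2-Ab1, a class II chain, read 8.77, 9.13 and 9.59 against 10.10, 10.17 and 10.19 in tumor and 8.93, 9.91 and 10.56 against 10.82, 11.21 and 11.02 in stroma. Its genotypes were apart in both tissues, and its averaged difference was 1.10 (adjusted p = 0.0746). The type I interferon list was weaker, with 14 of 17 above 0, a median of 0.35 (0.50 in stroma and 0.10 in tumor) and 0 called in limma, 7 higher at an unadjusted p under 0.05.

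Clec12a and Ly6c2, which are surface genes of leukocytes, were called as well. Clec12a, an inhibitory lectin receptor of myeloid cells, rose by 0.91 (adjusted p = 0.0341), with 1.3 in stroma and 0.53 in tumor and an unadjusted p of 0.0334 in the test between tissues. Its Stat3wt tumor values of 3.13, 3.26 and 2.80 lay under the limit for dim genes. Of the 6 Stat3wt arrays 5 did, with a mean of 3.32 over the tissues, so the gene was tested only because of Stat3dm. With such values raised to the limit the point estimate was 1.45-fold higher in Stat3dm, which is no lower bound. Ly6c2, a surface protein of monocytes and some T cells, read 5.56, 4.77 and 4.29 against 5.73, 5.80 and 5.44 in tumor and 5.12, 4.76 and 4.87 against 6.88, 5.85 and 6.92 in stroma. The tumor groups overlapped and the stroma groups did not, with an averaged difference of 1.21 (adjusted p = 0.044). Clec12a passed in 3 and Ly6c2 in 4 of the 12 fits without 1 array.

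The general leukocyte markers Ptprc and Cd53, whose single values were looked at after the results, had averaged differences of 0.76 and 0.90 (adjusted p = 0.296 and 0.0898). Their summed signal was 52.3 to 102 in Stat3wt tumor and 68.8 to 92.9 in Stat3dm tumor, against 71.6 to 137 in Stat3wt stroma and 228 to 282 in Stat3dm stroma. It thus overlapped in tumor and was apart in stroma. The 5 named T cell markers summed to 127 to 155 and 175 to 192 in tumor and to 183 to 247 and 234 to 424 in stroma, Stat3wt first. Macrophage and monocyte markers summed to 397 to 568 against 331 to 471 in tumor and 363 to 980 against 666 to 1010 in stroma. Their part in the interferon and MHC rises was not tested.

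As lists, T cell genes had 12 of 13 above 0 (median 0.35), B and plasma cell genes 11 of 12 (median 0.35) and neutrophil genes 12 of 13 (median 0.45, and 0.19 without Stat3dm stroma 1), with 0 called in limma and 5, 5 and 2 higher at an unadjusted p under 0.05. Cd8a, the coreceptor of cytotoxic T cells, differed by 0.52 (adjusted p = 0.181), the lymphocyte protease Ctsw 0.63 (adjusted p = 0.0898) and the B cell receptor chain Cd79a 1.25 (adjusted p = 0.102). Cd79a reached 6.79 and 6.91 in Stat3dm stroma 2 and 3 and 4.99 in Stat3dm stroma 1. Sdc1, a plasma cell gene also made by epithelium, differed by -0.76 (adjusted p = 0.0993). Of 18 macrophage and monocyte genes 12 lay above 0, with a median of 0.0853 (0.35 in stroma, -0.16 in tumor), 0 called in limma and 1 higher at an unadjusted p under 0.05. The direction of this median rested on single arrays, with -0.11 without Stat3wt stroma 1 and 0.28 without Stat3wt stroma 3.

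A mast cell gene was among the falls. Mcpt1, a protease of mucosal mast cells, read 5.55, 4.41 and 6.61 in Stat3wt tumor and 3.09, 3.62 and 3.66 in Stat3dm tumor. In stroma it read 5.39, 4.78 and 4.94 against 3.50, 4.43 and 2.94. The groups were apart in both tissues, although 4 of the 6 Stat3dm values lay under the limit of 3.65 for dim genes. The Stat3dm mean of 3.54 lay under it too, so Mcpt1 was tested only because of its level in Stat3wt, with a mean of 5.28. With Stat3dm values under the limit raised to it, the point estimate was 2.82-fold lower in Stat3dm, which is no lower bound. The fitted difference was -1.74 ± 0.32 (SE, adjusted p = 0.0424, limma), passing in 2 of the 12 fits without 1 array (adjusted p up to 0.107). Mcpt2 and Tpsb2, also mast cell proteases, differed by -1.70 and -1.41 (adjusted p = 0.146 and 0.273). Of 9 tested mast cell genes 8 lay below 0 with a median of -0.59, which became 0.06 when the dimmer 50% of genes were left out. The 6 mast cell markers, of which Mcpt4 and Fcer1a were too dim to be tested, summed to 115 to 435 against 83.1 to 103 in tumor and 157 to 561 against 86.1 to 140 in stroma.

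The levels of the called genes in the 2 tissues were also compared, as the mean difference of stroma minus tumor over both genotypes, in which 8 of the 47 passed. A value below 0, that is, a higher level in tumor, was found for 53% of all genes and for 65.9% of all genes below 0 in the genotype average. Of the 33 genes called lower in Stat3dm 32 were below 0, and 5 passed (Krt36, Apcdd1, Erich3, Dkk2 and Tbx3, from -1.60 to -0.89) and 0 were higher in stroma, against 1.71% and 0.848% of all genes. Of the 14 genes called higher in Stat3dm 9 were below 0 as well, against 38.7% of all genes above 0 in the genotype average. Whether the 2 groups of called genes differ in this was not tested. Ccl5 at 1.57 and Clec12a at 0.89 were called higher in stroma, and Dmbt1 at -1.52 was called lower there.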

How the data were processed

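Total RNA of 12 laser-captured samples was measured on 1 single-colour Affymetrix array each. For 41345 probe sets the authors deposited log2 values. According to the submitters' processing notes they used RMA (robust multi-array average) in Expression Console 1.3.1 of Affymetrix, which corrects background and scales arrays against each other, so differences are relative. Array medians and spreads still differed in the deposited values, and further normalization was tried as an alternative. No source used here gives the genome build or the probe positions.

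The supplied annotation gave 23521 probe sets 1 symbol. The brightest stood for each of 22180 genes (4 of the called genes had several), and the dimmest 25%, under a mean of 3.65, were left out. Group means were fitted in limma 3.58.1 (R 4.3.3, eBayes), with Benjamini-Hochberg adjustment over 16635 genes at 0.05. All adjusted p-values are from this fit unless another is named. The limit of 3.65 is a rank in brightness, not a measured background. The script was tested on simulated data. The number of arrays limits precision. p-values measure the spread between these samples.

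The 41 lists (799 names, 693 tested) came from general knowledge, were chosen with earlier results of these data known and hold genes those results named, so their direction is no independent evidence. No set test was run. The genes named were Stat3, the 14 largest rises and 14 largest falls among called genes, and the 3 members of lowest p and every called member of each list, passing over predicted genes. Exceptions are marked. Falls beyond that were named after their values were seen, to account for every called gene. The stroma minus tumor contrast was added after the data were seen. Alternatives covered the filter, normalization, probe sets, array weights and spread, the model, blocks and each array left out.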

Additional observations from a re-analysis of the deposited data

How the results depend on the processing

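With 47 genes called in the averaged difference, the count was 90 after quantile normalization, 17 with median centring, 945 with array weights (whose estimation stopped before it converged), 166 with array spread as a covariate and 21 without the 2 widest arrays. It was 44 to 48 with other filters, probe set means or an intensity trend, 43 without the interaction, and 16 to 69 when 1 array was left out. No called gene changed sign in any of these, and 4 (Dkk2, Muc6, Plat and Stra6) passed in all 25 alternatives. Tumor, with 3 calls, gave 5 with the dimmer 50% left out, 5 with a trend, 1579 with array weights, 14 with the spread covariate and 0 to 7 without 1 array. Stroma, with 0, gave 1 after quantile normalization, 164 with array weights, 13 with the covariate and 0 to 2 without 1 array. The interaction, with 0, gave 4 with array weights. The 286 genes without overlap in both tissues became 596 without the 2 widest arrays and 355 to 517 without 1, where fewer values are compared. Stat3, at -0.13, turned to 0.066 with the covariate and lay between -0.291 and 0.034 when 1 array was left out, the latter without Stat3wt stroma 3. The causes were not tested. With 3 arrays a group, small differences cannot be told from the spread.

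As a replicate block, the number gave 292 calls in the average (96 higher, 196 lower), 28 in stroma and 89 in tumor, with all 47 genes among the 292. A random block of genotype and number gave 13 (correlation 0.234) and means per genotype and number 6. As a description, a rule was met where all 3 correlations of same-numbered deviations were over 0.1. Between the genotypes that held in tumor (0.32, 0.15 and 0.69 for numbers 1 to 3), not in stroma (0.15, -0.04 and 0.11). Between tumor and stroma it held in Stat3dm (0.12, 0.16 and 0.30), not in Stat3wt (0.44, -0.00 and 0.51). Between Stat3wt tumor and Stat3dm stroma it held (0.19, 0.22 and 0.21), and between Stat3wt stroma and Stat3dm tumor it did not (0.44, 0.07 and 0.42). The numbers thus met the rule in some group pairs and not over all 4 groups. Arrays of different numbers were not compared, so the rule cannot show whether the numbers pair arrays.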

Other observations

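Some lists not described above leaned 1 way without a call. Of 21 hypoxia and glycolysis genes 17 lay above 0 (median 0.20), of 28 respiratory chain genes 21 (median 0.13) and of 20 inflammatory cytokine and NF-kB genes 17 (median 0.24, with 0.65 in stroma and -0.20 in tumor). The last median was 0.025 without Stat3dm stroma 1, an array without which the hypoxia median was 0.0991, and the respiratory chain median was 0.0405 without Stat3dm tumor 3. Of 16 genes of the interleukin-6 and interleukin-10 family 12 lay above 0 (median 0.16, and 0.0399 without Stat3wt tumor 3), and of 14 immune checkpoints and costimulators 9 did (median 0.25). Below 0 lay 21 of 25 ribosomal protein genes (median -0.13), 10 of 12 smooth muscle genes (median -0.14) and 12 of 16 endothelial genes (median -0.11). The ribosomal median was -0.0307 without Stat3dm stroma 1. Without Stat3wt stroma 3 the smooth muscle median was -0.0593 and the endothelial one 0.00181. None of these genes was called in limma, and the number with an unadjusted p under 0.05 was at most 4 in either direction in each of these lists. Prox1, a transcription factor of lymphatic endothelium and enteroendocrine cells, differed by -1.81 (adjusted p = 0.113).

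In the remaining lists medians were small. Of 8 cytotoxic lymphocyte genes 7 lay above 0 (median 0.15, and 0.0524 without Stat3wt tumor 3), with 2 higher at an unadjusted p under 0.05. Of 19 immediate early genes 15 lay above 0 (median 0.0814, and 0.00145 without Stat3dm tumor 3). Fibroblast genes were split evenly, 10 above and 10 below (median -0.0163), with Pdgfra at -0.94 (adjusted p = 0.172). Dendritic cell genes had a median of 0.0214, lipid and cholesterol genes 0.092, unfolded protein response genes 0.0908, EGF receptor and ligand genes -0.0921, nerve and glia genes 0.0108, adipocyte genes 0.0749, and skeletal muscle and squamous genes 0.028. The 1 gene called among these was Krt36, in the last list.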
